A study of Mus musculus with 8 samples.

Results

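CpG-rich promoters are the stretches around gene starts where the dinucleotide CpG, the main target of DNA methylation in mammals, is densely packed. Here a promoter was the annotated start of an autosomal protein-coding gene with 500 bp to either side, and it was called CpG-rich when 40 or more of its CpGs had at least 5 reads in every file. Of 20807 gene starts, 10603 met this rule, 8824 had 3 to 39 such CpGs and are called CpG-poor below, and 1380 had fewer than 3 and were not tested. The choice used CpG number and coverage only, so the methylation levels below were not part of it. The windows of 2152 CpG-rich promoters (20.3%) overlapped the window of another, among them 619 neighbouring pairs that point away from each other, so these promoters share CpGs.

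The levels come from whole-genome bisulfite sequencing of spleen lymphocytes of C57BL/6J mice aged 6 to 8 weeks. The groups were female CD43- B cells, female naive CD4+ T cells (sorted as CD62Lhi, CD44lo and CD25-), male CD43- B cells and male naive CD4+ T cells, with 2 samples each, and no group carried a mutation or treatment. Each group has 1 file, whose cells were pooled over several mice, and the labels of both samples name that file. The number in the file's name is that of 1 of the 2 samples, so it may hold that sample alone, and the labels do not state which. A promoter therefore has 4 levels, given below with the female file first for each cell type. The p-values of the model below set a difference against the spread between these files, which is estimated largely from other promoters. Bisulfite reads 5-methylcytosine and 5-hydroxymethylcytosine alike, so a level is the sum of both as a percentage of reads.

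Dense CpG promoters, the core of most CpG islands, are typically kept free of methylation in normal tissues whether or not the gene is transcribed. Known exceptions include genes used only in the germ line, whose promoters gain methylation in the early embryo and stay silent in the body, and imprinted genes, where the copy from a single parent is methylated. Promoters with few CpGs are more often methylated and more often differ between cell types.

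The files hold methylation levels only, with no measure of expression, embryos or parental alleles. In every file most CpG-rich promoters were close to 0% methylation, 87 were methylated in all 4 files, and B and T cells differed by 20 points or more at 5. The reference sequence upstream of 8 gene starts is shown because these starts stand for the patterns described below: an unmethylated start, germ cell starts, an imprinted start at an intermediate level, a methylated Hox start and the starts that were lower in B cells. Each sequence holds the 200 bases before the annotated start on the gene's own strand (GRCm38, overlapping no annotated exon), and capitals mark CpGs.

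Suz12 encodes a core subunit of Polycomb repressive complex 2 (chr11:79992906-79993105, plus strand). Its 32 CpGs in this stretch had 0% methylation in every file, from 282 to 532 reads summed over the CpGs. A read counts once at each CpG it covers, so these are not separate molecules. If they were independent, they would allow a level of up to 1.06% at the lowest total, and the real limit is higher.
Suz12: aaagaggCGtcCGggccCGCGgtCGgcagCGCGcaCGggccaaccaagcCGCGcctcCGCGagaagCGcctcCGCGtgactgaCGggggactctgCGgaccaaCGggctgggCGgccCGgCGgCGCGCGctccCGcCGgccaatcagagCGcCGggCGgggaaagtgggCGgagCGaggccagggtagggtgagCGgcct

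Dazl encodes an RNA-binding protein that germ cells need (chr17:50293637-50293836, minus strand), and Hormad1 encodes a protein of the meiotic chromosome axis (chr3:95559477-95559676, plus strand). Over the stretches shown, Dazl lay between 98.3% and 99.2% and Hormad1 between 94.7% and 96.2%.
Dazl: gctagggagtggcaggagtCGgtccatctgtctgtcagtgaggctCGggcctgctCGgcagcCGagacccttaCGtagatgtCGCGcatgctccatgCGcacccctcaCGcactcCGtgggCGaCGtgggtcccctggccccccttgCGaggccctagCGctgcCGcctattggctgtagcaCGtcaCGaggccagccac
Hormad1: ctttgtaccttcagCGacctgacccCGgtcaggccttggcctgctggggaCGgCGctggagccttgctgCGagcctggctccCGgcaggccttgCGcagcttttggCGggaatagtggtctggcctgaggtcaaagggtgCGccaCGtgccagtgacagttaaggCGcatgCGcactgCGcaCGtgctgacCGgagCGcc

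Zrsr1 is a paternally expressed imprinted gene that lies in an intron of Commd1 (chr11:22971805-22972004, plus strand). The 7 CpGs shown were at 42.5% and 43.9% in the B cell files and 42.9% and 60% in the T cell files.
Zrsr1: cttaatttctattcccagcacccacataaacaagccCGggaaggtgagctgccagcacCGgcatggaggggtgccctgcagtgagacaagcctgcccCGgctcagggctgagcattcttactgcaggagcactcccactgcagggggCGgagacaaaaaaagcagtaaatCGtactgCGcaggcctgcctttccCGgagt

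Hoxa5 encodes a homeodomain transcription factor of body patterning (chr6:52204588-52204787, minus strand). The 22 CpGs shown were at 79.4% and 75.1% in the B cell files and 77.3% and 96.0% in the T cell files.
Hoxa5: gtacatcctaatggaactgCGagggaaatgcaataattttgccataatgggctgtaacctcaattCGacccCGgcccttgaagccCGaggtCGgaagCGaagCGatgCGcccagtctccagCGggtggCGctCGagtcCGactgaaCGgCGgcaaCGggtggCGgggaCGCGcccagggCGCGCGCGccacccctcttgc

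Scx encodes scleraxis, a transcription factor of tendon formation (chr15:76457252-76457451, plus strand), Npb encodes the signalling peptide neuropeptide B (chr11:120608277-120608476, plus strand) and Mcoln3 encodes an endolysosomal cation channel (chr3:146117250-146117449, plus strand). In the stretch shown, Scx was at 64.3% and 54.7% in the B cell files against 83.2% and 89.2% in the T cell files. Npb was at 57.1% and 55.2% in the B cell files against 76.8% and 79.3% in the T cell files, and Mcoln3 at 26.9% and 22.2% against 64.6% and 45.8%. At all 3 starts both B cell files were below both T cell files.
Scx: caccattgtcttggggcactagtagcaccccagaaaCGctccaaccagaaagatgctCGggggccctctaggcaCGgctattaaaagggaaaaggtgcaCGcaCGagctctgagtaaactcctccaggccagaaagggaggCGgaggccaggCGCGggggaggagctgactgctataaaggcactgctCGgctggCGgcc
Npb: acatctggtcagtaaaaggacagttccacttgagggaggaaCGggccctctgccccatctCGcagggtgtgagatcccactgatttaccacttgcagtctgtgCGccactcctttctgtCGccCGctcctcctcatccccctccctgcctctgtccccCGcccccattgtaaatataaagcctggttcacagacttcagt
Mcoln3: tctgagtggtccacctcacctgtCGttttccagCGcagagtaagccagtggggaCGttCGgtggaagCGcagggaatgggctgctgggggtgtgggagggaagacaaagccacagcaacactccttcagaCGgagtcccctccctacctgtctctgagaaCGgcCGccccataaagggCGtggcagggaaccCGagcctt

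Read totals at CpG-rich promoters were large because they sum over many CpGs. The mean depth of an autosomal CpG was 14.6 and 16.1 reads in the B cell files and 17.7 and 17.3 in the T cell files. The median promoter had 989 and 1216 reads over its CpGs in the B cell files and 1380 and 1309 in the T cell files, and the lowest had 267. For the promoters named here the 95% Wilson interval of a level reached at most 4.15 points to either side, with a median of 1.99 points. It leaves out the spread between samples. It also takes the summed reads as independent, so where CpGs share reads it is too narrow even for counting error. As a check of the labels, promoters of B cell and T cell genes of any CpG number were compared. Of 39 B cell genes 14 were called lower in B cells, and of 50 T cell genes 19 were called higher in B cells, all of them at CpG-poor promoters, where 3.05% of all promoters were called in either direction. Of 33 myeloid and natural killer cell genes 1 was called.

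Of the 10603 CpG-rich promoters, 9710 (91.6%) were unmethylated, meaning under 10% in every file. A further 87 (0.821%) were methylated, meaning at least 50% in every file, and the other 806 (7.60%) form the class between. Of the 806, 354 were at 10 to 50% in every file. Another 432 were under 10% in 1 to 3 files, and 20 were at 50% or more in 1 to 3 files. The same limits put 1186 of 8824 CpG-poor promoters (13.4%) in the unmethylated class and 5538 (62.8%) in the methylated class. Most unmethylated CpG-rich promoters were far below the limit: 8338 of the 10603 (78.6%) were under 5% in every file and 6036 (56.9%) under 2%. The median level of CpG-rich promoters was 1.17% and 0.905% in the B cell files and 0.831% and 0.882% in the T cell files. The medians of CpG-poor promoters were 77.6% in both B cell files and 78.5% and 78.0% in the T cell files. The median difference of 77.0 points ranged from 76.5 to 77.7 over the 4 files, and the exact two-sided sign-flip permutation test over files gave p = 0.13, the smallest value that 4 files allow.

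**Figure D1:**
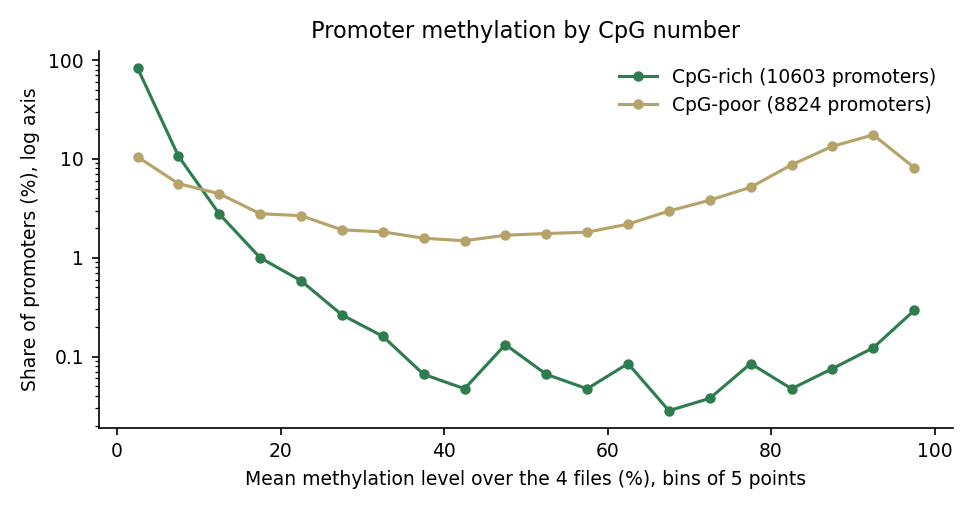
Share of promoters (percent, log axis) by mean methylation level over the 4 files (percent, bins of 5 points), for CpG-rich and CpG-poor promoters. The bin from 0 to 5% holds 83.4% of CpG-rich promoters and 10.5% of CpG-poor ones, and the small second rise of the CpG-rich curve at 95 to 100% holds 31 promoters.

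Promoters with more CpGs were more often unmethylated, also within the CpG-rich set. The share was 76.5% at 40 to 49 CpGs, 87.9% at 50 to 59, 95% at 60 to 79, 97.9% at 80 to 99 and 98.8% at 100 or more. The share of methylated promoters ran the other way, from 2.67% at 40 to 49 CpGs to 0.0952% at 80 to 99, and it was 0 of the promoters with 100 or more. The 325 promoters with 40 to 41 CpGs had a median level of 4.45% and 70.5% of them were unmethylated, while the 291 with 38 to 39 CpGs had a median of 5.75% and 61.2% were unmethylated.

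Around the gene start, unmethylated CpG-rich promoters formed a trough that was wider downstream than upstream. The mean level, with each promoter counted once per 100 bp, was 0.606% in the 100 bp after the start. It reached 19.8% at 400 to 500 bp upstream but 2.60% at the same distance downstream, and 55.7% against 30.2% at 900 to 1000 bp. Promoters of the class between shared the shape at a higher level, with 9.25% after the start and 65.6% at 400 to 500 bp upstream. Of these 806 promoters, 440 had CpGs upstream of the start that were at least 20 points higher than those downstream, and 53 the reverse. The methylated class had no trough, since its mean stayed between 80.7% and 87.6% from 1000 bp upstream to 1000 bp downstream.

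**Figure D2:**
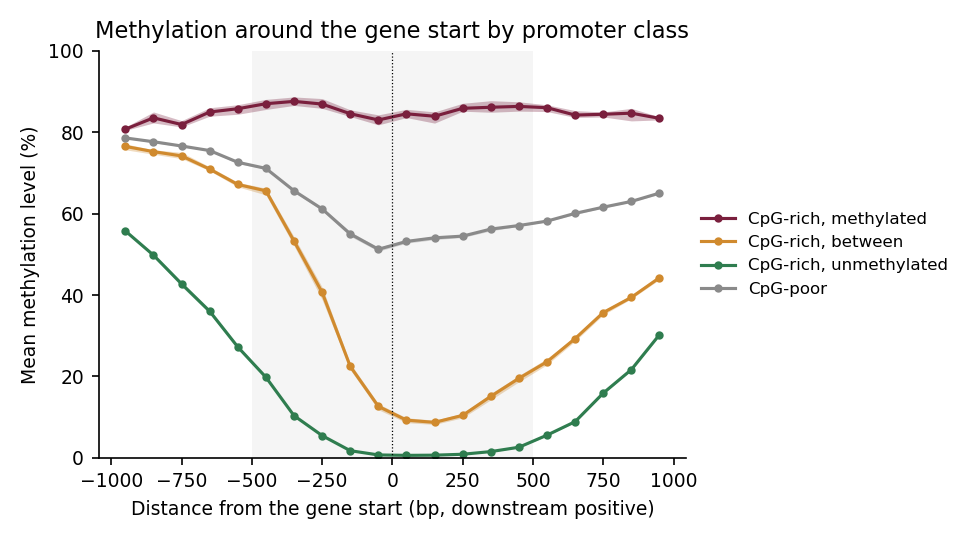
Mean methylation level (percent) against distance from the gene start (bp, downstream positive) in bins of 100 bp, for the 3 classes of CpG-rich promoters and for CpG-poor promoters. Lines are the mean of the 4 files, bands their range and the grey area is the window that set the class; outside it the unmethylated class rises to 55.7% upstream and 30.2% downstream, while the methylated class stays above 80%.

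The median level of unmethylated promoters differed a little between files. It was 0.982% and 0.714% in the B cell files and 0.642% and 0.694% in the T cell files. Over all CpG-rich promoters, B cells were above T cells at 63.0% of promoters in females and at 50.5% in males. The level of mitochondrial CpGs, read in the same files, was also highest in female B cells, at 0.447%, with 0.249% in the male B cell file and 0.188% and 0.172% in the T cell files. Its part in the small differences between files was not tested.

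Housekeeping and chromatin genes were unmethylated at shares close to the 91.6% of all CpG-rich promoters. Of 35 CpG-rich starts on the housekeeping list, 34 were unmethylated, with a list median of 0.627% against 0.943% for all CpG-rich promoters. Cox4i1, a subunit of cytochrome c oxidase, had 0% in both B cell files, 0.0988% in female T cells and 0.0524% in male T cells. In the B cell files 0 of 1872 and 0 of 1911 reads, counted once per CpG, would allow up to 0.160% and 0.157% if independent. Its window overlapped that of Emc8. The exception was Gusb, the lysosomal enzyme beta-glucuronidase, at 8.05% and 7.58% in the B cell files and 8.30% and 12.6% in the T cell files. Of 28 genes for DNA methylation and chromatin factors 27 were unmethylated, and L3mbtl2, a Polycomb-related protein, lay at 11.8% and 9.81% in the B cell files and 8.43% and 8.46% in the T cell files. Proteasome subunits were unmethylated at 38 of 38 starts and ribosomal protein genes at 66 of 70.

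Developmental regulators are given beside 91.6% unmethylated, 0.821% methylated and a median of 0.943% over all CpG-rich promoters. The median of 28 Hox starts was 4.47%, with 23 unmethylated, 4 between and 1 methylated. Hoxa5, the methylated member, was at 81.4% and 84.4% in the B cell files and 91.3% and 96.1% in the T cell files over its whole window. Hoxa6 was at 12.6% and 17.7% in the B cell files and 36.1% and 30.7% in the T cell files. Both starts lie in introns of Hoxa3 as annotated, and Hoxa2 in the same cluster was between 19.19% and 23.5%. Developmental factors on the list of Pax, Sox, Gata, Tbx, Lhx and related genes were unmethylated at 35 of 39 starts and those of the Nkx, Fox, Irx, Dlx and En families at 49 of 55, with 1 methylated start in each list. Pluripotency genes were unmethylated at 10 of 11 starts, among them Klf4 between 0% and 1.18% and Dnmt3b between 4.32% and 5.76%. The remaining member, Otx2, a homeodomain factor, was at 7.74% to 12.7%.

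Germ cell genes held most of the listed exceptions. Of 43 CpG-rich starts on this list, 26 (60.5%) were methylated, 9 lay between and 8 were unmethylated, against 0.821% methylated over all CpG-rich promoters, and the list median was 86.6%. The list was chosen with earlier results of these data known, so its share describes the list and may not hold for germ cell genes at large. The methylated starts cover the synaptonemal complex (Sycp1, Sycp2, Sycp3, Syce1, Syce3 and Tex12), other meiotic chromosome functions (Hormad1, Msh4 and Majin), RNA-binding proteins and helicases (Dazl, Ddx4 and D1Pas1) and the piRNA pathway (Mael, Mov10l1, Tdrd1 and Fkbp6). Sycp3 was at 97.3% and 93.9% in the B cell files and 94.98% and 94.8% in the T cell files. Ddx4, the germ cell helicase Vasa, was at 95.9% and 96.5% in the B cell files and 97.8% and 95.5% in the T cell files. No start on the list passed the test of B against T cells given below at any size, which 1.53% of all CpG-rich promoters did. By class the share was 10.3% of the methylated, 5.21% of the class between and 1.14% of the unmethylated promoters. Whether a count of 0 among 43 departs from these shares was not tested.

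Not every germ cell start was methylated. Prdm9, which sets the sites of meiotic recombination, lay between 0% and 0.384%, and Mei4, needed for meiotic DNA breaks, between 0% and 0.514%. The meiotic recombinase Dmc1 lay between 24.3% and 28.1%, and the meiotic cohesin subunit Smc1b between 36.8% and 48.2%. The 11 Spata starts were all unmethylated, and of 8 Tex starts 6 were unmethylated.

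The 10 methylated promoters with the highest lowest file were Hsf5, Tmprss12, Hist1h2aa, Stk31, 1700029P11Rik, Naa11, Trim52, Jade1, 4933416C03Rik and Rpl10l. Hsf5, a heat shock factor family member of the male germ line, was at 97.1% and 97.7% in the B cell files and 98.2% and 98.5% in the T cell files. Hist1h2aa, a testis variant of histone H2A, lay between 96.7% and 97.7%, and its window overlapped that of Hist1h2ba, the matching H2B variant, at 94.3% to 98.4%. Of 51 clustered histone starts these were the only 2 methylated, and 48 were unmethylated. Naa11 and Rpl10l, intronless copies of an acetyltransferase and a ribosomal protein gene, lay between 96.6% and 97.3% and between 96.2% and 97.7%. The ribosomal protein family had no other methylated start.

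Of the 87 methylated promoters, 38 were at 90% or more in every file, 54 at 80% or more, and 33 had a lowest file between 50% and 80%. They sat near the lower end of the CpG range, with a median of 48 usable CpGs and an observed to expected CpG ratio of 0.640, against 69 CpGs and 0.780 in the unmethylated class. The lists above named 35 of the 87, and 26 were on the germ cell list. For 11 of the 87 another annotated protein-coding start of the same gene, more than 1000 bp away, could be measured, and at 3 of these (27.3%) the other start was unmethylated, a share close to the 24.2% of 2629 in the unmethylated class and the 27.9% of 233 in the class between. Nsd1, a histone H3 lysine 36 methyltransferase, lay between 79.01% and 89.6% at the start used here and at 0% in every file at a start 2037 bp away. Jade1, a subunit of a histone acetyltransferase complex, lay between 96.3% and 98.6% and at no more than 0.526% at a start 7876 bp away. Csf2ra, the receptor subunit for the growth factor GM-CSF, lay between 64.6% and 74.0% and at no more than 0.291% at a start 1053 bp away.

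**Figure D3:**
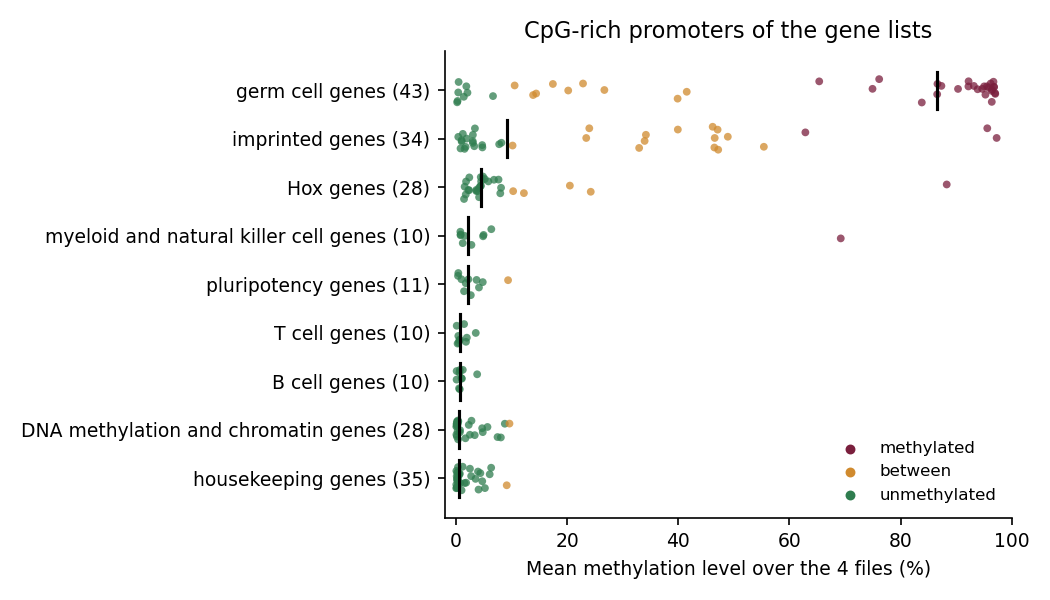
Mean methylation level over the 4 files (percent) of each CpG-rich promoter on 9 lists, with the number of promoters in brackets; points are promoters coloured by class, vertical bars are list medians and the vertical scatter has no meaning. Germ cell genes have a median of 86.6%, with most methylated members above 80%, and imprinted genes have a group between 30% and 60%. Hox genes have a median of 4.47%, with 4 starts in the class between and 1 methylated. The other lists stay near 0 apart from single promoters.

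Imprinted genes gave a group at intermediate levels. Of 34 CpG-rich starts on this list, 17 were unmethylated, 14 lay between and 3 were methylated, with a median of 9.17%. Clustered protocadherins, with 6 CpG-rich starts, had 3 between and 3 unmethylated, with a median of 12.9%. Among all CpG-rich promoters, 29 had at least 80% of their CpGs at mean levels of 20 to 80%, and 12 of the 29 are on the imprinted list: Peg3, Usp29, Peg10, Sgce, Nnat, Gnas, Igf2r, Zrsr1, Nap1l5, Mkrn3, Magel2 and Cdkn1c. At the first 7 of these every usable CpG was in that range. Peg3, a paternally expressed zinc finger gene, was at 46.1% and 47.6% in the B cell files and 49.4% and 43.1% in the T cell files. Peg10, a paternally expressed gene derived from a retrotransposon, was at 53.5% and 46.1% in the B cell files and 52.5% and 43.5% in the T cell files. Igf2r, the maternally expressed receptor that clears IGF2, was at 47.1% and 39.8% in the B cell files and 34.5% and 38.3% in the T cell files. Of the 12, Nap1l5 passed the test of B against T cells given below, beside 22 of the 170 CpG-rich promoters (12.9%) at mean levels of 20 to 80% that passed it at any size. Other imprinted starts were close to 0%, such as Ube3a between 0.317% and 0.575% and H13 between 0.420% and 1.12%, while Mcts2, which lies inside H13, was at 94.5% to 96.8%.

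Of 113 CpG-rich promoters at 20 to 80% in every file, 28 had at least 80% of their CpGs in that range, while at the median promoter of the 113 only 47.7% of CpGs were in it. Of the 113, 54 had upstream CpGs at least 20 points above the downstream ones. Starts with evenly intermediate CpGs that are on no list included Rbm46 (36.02% to 43.6%), which encodes a germ cell RNA-binding protein, Rfx8 (43.7% to 51.5%), which encodes an RFX family factor, and Rbmxl2 (55.5% to 61.9%), a testis retrogene. Prr23a1 and Prr23a3, neighbours of the same family, were at 54.9% to 62.8% and 54.8% to 62.3%.

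Short motifs were counted on both strands between 250 bp upstream and 50 bp downstream of the start, which describes letters only. CACGTG, the E-box, was found at 22 of the 87 methylated promoters (25.3%), at 11.1% of unmethylated CpG-rich promoters and at 7.83% of all autosomal protein-coding starts. GCGGGAA, a form of the E2F site, was found at 21.8%, 9.88% and 5.83% in the same order, and CATGCGC, part of the NRF1 site, at 17.2%, 7.79% and 4.71%. GGGCGG, the GC box bound by Sp1 family factors, was at 55.2% of methylated promoters, 56.3% of the class between, 72.0% of unmethylated ones and 43.8% of all starts. In the class between the E-box was at 8.19%, the E2F form at 7.32% and CATGCGC at 4.71%. No difference between classes was tested, and a GC box and an E2F site can share letters. CCAAT was at 37.9% of methylated promoters, 32.3% of the class between, 38.3% of unmethylated ones and 38.6% of all starts.

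The comparison of B with T cells asked which CpG-rich promoters differed by cell type. It used a quasi-binomial model of methylated and unmethylated reads with cell type and sex, fitted to all 19427 promoters with at least 3 usable CpGs, and a call needed an adjusted p (Benjamini-Hochberg) under 0.05 and a mean difference of at least 20 percentage points. Of the 10603 CpG-rich promoters 5 were called, all lower in B cells, which is 0.0472%, while the calls made up 1.41% of all promoters tested and 269 of 8824 CpG-poor promoters (3.05%). Limma on log2 ratios had 0 CpG-rich promoters past the adjusted p at any size, so that it keeps no call given here or below. At the 5 it was not passed, with limma adjusted p from 0.25 to 0.36, and Fisher's exact test between files called all 5. Fisher's test takes the summed reads as independent and allows for no spread between files, so its calls are the less cautious. Of the CpG-rich promoters, 83.4% had a mean level under 5%. At mean levels of 20 to 80%, 5 of 170 CpG-rich promoters (2.94%) and 237 of 2547 CpG-poor promoters (9.31%) were called. Across CpG-rich promoters the mean B minus T difference was under 1 point at 81.9% and under 5 points at 98.9%.

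Scx had the largest difference of the 5. Its window (chr15:76456952-76457952, 73 usable CpGs) lies in an intron of Bop1, and it was at 35.9% and 37.8% in the B cell files and 71.3% and 67.1% in the T cell files. B cells were lower by 35.4 points in females and 29.3 points in males (quasi-binomial test, adjusted p = 4.4e-09). With 10 reads required per CpG and the spread estimated anew, the mean difference was -32.0 points and the adjusted p of the same test 0.0081. At 62 of the 73 CpGs both B cell files were below both T cell files, and at 0 above. Here and at the promoters below, these are the CpGs that made the call, and neighbouring CpGs can share reads. The counts describe the window and are no further evidence.

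Pfn3, a testis profilin that regulates actin, has its start (window chr13:55414732-55415732, 47 CpGs) in an exon of Slc34a1. It was at 51.7% and 50% in the B cell files and 80.9% and 75.9% in the T cell files, a mean difference of -27.5 points (adjusted p = 9.9e-07). Both B cell files were lower at 36 of 47 CpGs.

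Npb (window chr11:120607977-120608977, 49 CpGs) overlaps no other annotated gene at its start. It was at 38.2% and 35.9% in the B cell files and 61.4% and 63.0% in the T cell files, with a mean difference of -25.2 points (adjusted p = 1.3e-05) and both B cell files lower at 41 of 49 CpGs. Mcoln3 (window chr3:146116950-146117950, 41 CpGs) was at 40.1% and 35.3% against 63.9% and 60.9%, a mean difference of -24.7 points (adjusted p = 2.6e-05), and both B cell files were lower at 31 of 41 CpGs. The levels did not overlap between cell types at either start. With 1000 bp to either side the Mcoln3 difference was -18.5 points, below the limit for a call. At the start of its lowest-numbered transcript, 4222 bp away with 25 usable CpGs, Mcoln3 went the other way, with 17.0% and 16.1% in the B cell files against 9.25% and 7.51% in the T cell files (8.18 points). The same model fitted to the windows at those starts, with its spread estimated anew, gave an adjusted p of 0.018, which is not on the footing of the p-values above: the unchanged window of Pfn3 had 9.2e-04 in that fit.

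Gdf1, a ligand of the TGF-beta family, starts in an exon of Cers1 (window chr8:70329317-70330317, 43 CpGs). It was at 39.5% and 36.5% in the B cell files and 55.9% and 63.7% in the T cell files, a mean difference of -21.8 points (adjusted p = 4.4e-04). The difference was -24.2 points over the CpGs downstream of the start and -8.89 points over those upstream. The mean difference was -16.7 points with 250 bp to either side, -18.1 points with 1000 bp and -17.9 points without the male T cell file, below the limit for a call. The call was also lost with 10 reads required per CpG, where the difference was -22.0 points (quasi-binomial test, adjusted p = 0.061). It was lost as well without the female B cell file, at -23.3 points, and without the male B cell file, at -20.3 points. Fits that left out a file had no sex term.

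**Figure D4:**
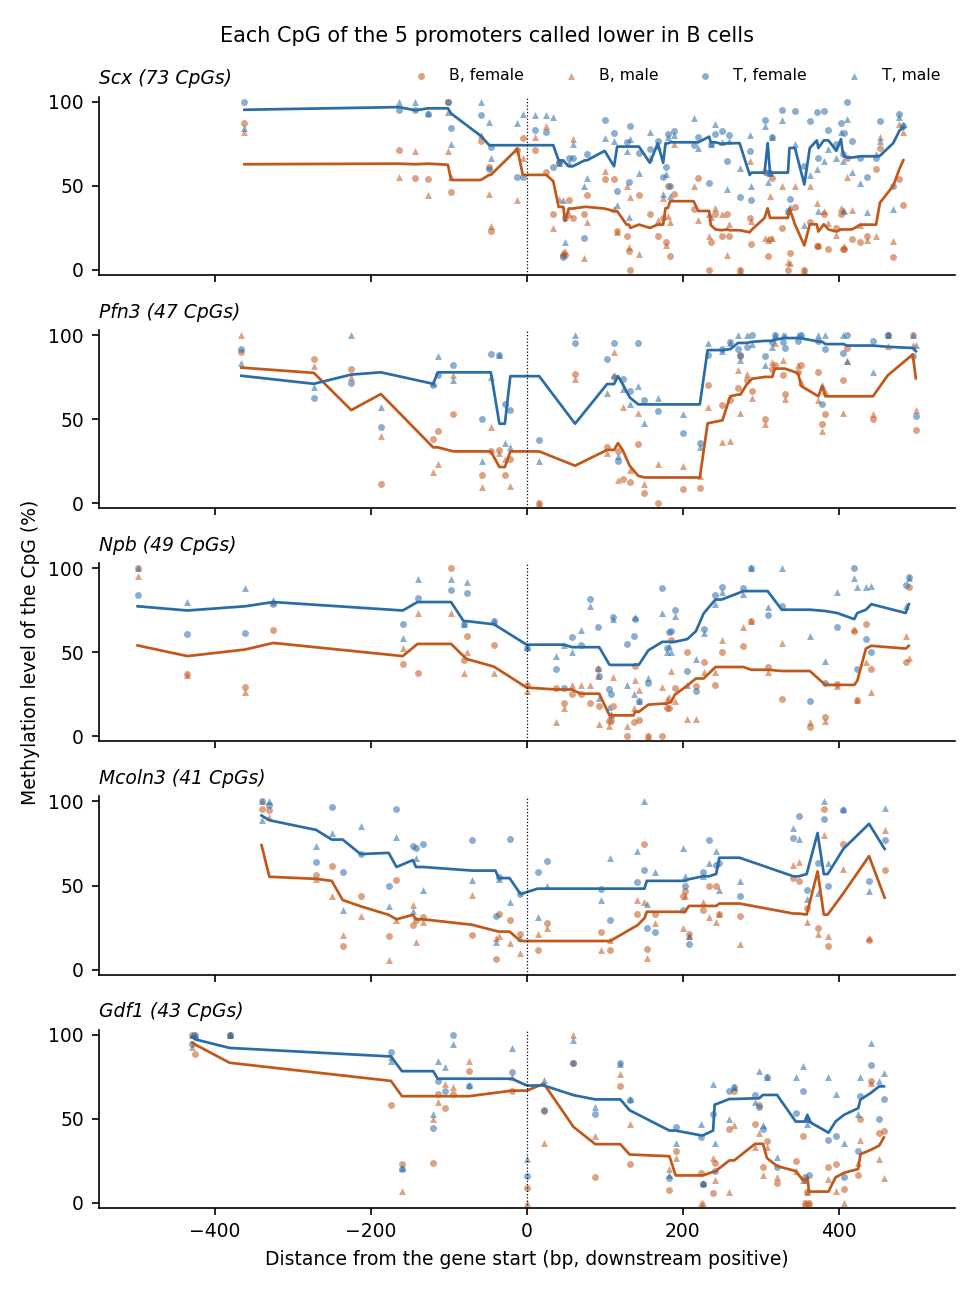
Methylation level of each CpG (percent) against distance from the gene start (bp, downstream positive) at Scx, Pfn3, Npb, Mcoln3 and Gdf1; circles are female and triangles male files, orange B cells and blue T cells, and lines are running medians over 7 CpGs of the mean of both files of a cell type. The B cell line runs below the T cell line over most of each window, with both B cell files below both T cell files at 62 of 73 CpGs of Scx and 30 of 43 of Gdf1.

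A lower limit of 10 points gave 28 CpG-rich calls (0.264%), 21 lower and 7 higher in B cells, against 3.0% of all promoters tested. All 28 had the same direction in both sexes, as had all 362 and 193 calls at CpG-poor promoters of the classes between and methylated. A call rests on the same 4 levels, so this agreement is no further support. Of the 28, 20 were in the class between and 8 in the methylated class. Beyond the 5 above, those lower in B cells included Sox15, a SOX family transcription factor, at 55.4% and 51.6% in the B cell files against 72.5% and 72.6% in the T cell files (adjusted p = 4.3e-04), and Hoxa6 (mean difference -18.2 points, adjusted p = 1.8e-04) and Hoxa5 (-10.8 points, adjusted p = 0.0013). Ltbr, the lymphotoxin beta receptor, was at 7.31% and 12.8% in the B cell files against 21.5% and 26.9% in the T cell files (adjusted p = 9.8e-04). Slc6a16, a solute carrier family member, was at 80.5% and 84.6% against 95.9% and 97.1% (adjusted p = 1.1e-05). Nap1l5, the imprinted gene in an intron of Herc3, was at 61.0% and 53.0% against 68.1% and 69.4% (adjusted p = 0.022).

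The 7 that were higher in B cells were Henmt1, Tmem267, Chad, Ikzf1, 3110070M22Rik, Chdh and Fgf3. Henmt1, the methyltransferase that modifies piRNA ends, was at 82.3% and 84.0% in the B cell files against 64.6% and 70.1% in the T cell files (mean difference 15.8 points, adjusted p = 0.0056). Ikzf1, which encodes the lymphoid transcription factor Ikaros, was at 17.9% and 19.06% in the B cell files against 7.56% and 6.79% in the T cell files (11.3 points, adjusted p = 0.0032). Chdh, choline dehydrogenase, was at 14.6% and 14.7% against 3.29% and 5.25% (10.4 points, adjusted p = 1.1e-05), and its window overlapped that of Il17rb. Tmem267 and 3110070M22Rik, at 13 and 10.9 points, have overlapping windows and are not separate observations. In the window of 250 bp to either side, Henmt1 and Ikzf1 passed 20 points, so that 2 of 7 calls there were higher in B cells.

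**Figure D5:**
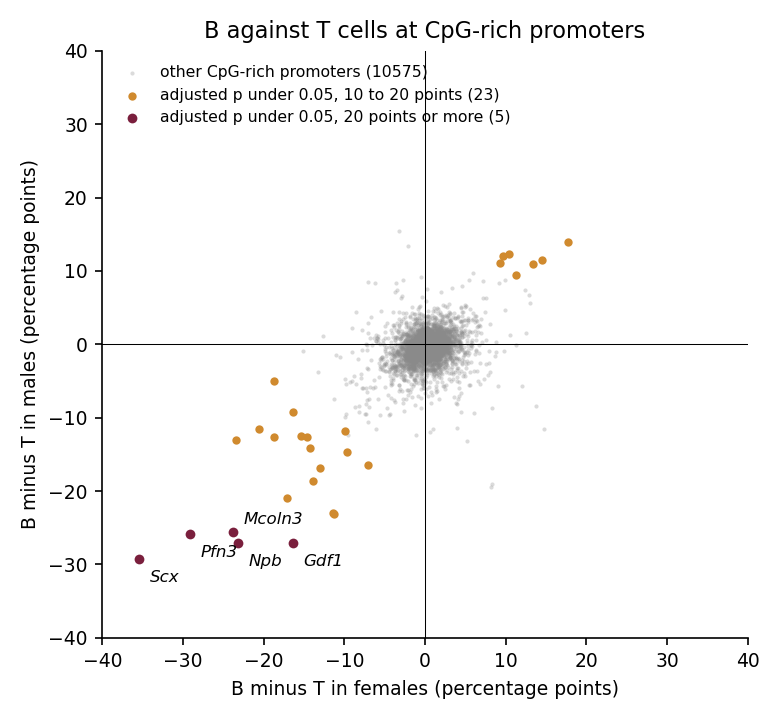
B minus T difference in males against that in females (percentage points) for each CpG-rich promoter; red points are the 5 calls at 20 points, orange points the 23 further calls at 10 to 20 points and grey points the other promoters. The 5 red points lie in the lower left, at -16.4 to -35.4 points in females and -25.6 to -29.3 points in males, and most grey points lie within 5 points of 0.

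Without a limit on size, 162 CpG-rich promoters (1.53%) passed the adjusted p, 91 higher and 71 lower in B cells, against 4.50% of all promoters tested, with a median size of 3.16 points. Of these 162, 111 were unmethylated promoters. Fisher's exact test had 197 past the adjusted p and limma 0. T cell genes supplied 3, all higher in B cells, of 10 on their list. Tcf7, which encodes a transcription factor of early T cell development, was at 1.32% and 1.46% in the B cell files and 0% in both T cell files (adjusted p = 0.0014). In the T cell files 0 of 1951 and 0 of 1617 reads, counted once per CpG, would allow up to 0.154% and 0.186% if independent. Bcl11b, which encodes a transcription factor of T cell commitment, was at 3.30% and 3.42% in the B cell files and 0.250% and 0.206% in the T cell files (adjusted p = 0.003). Rasgrp1, which activates Ras after T cell receptor signalling, was at 3.35% and 1.99% against 0.307% and 0.183% (adjusted p = 0.0055). At all 3 the B cell files were above the T cell files. In these purified populations a change in every cell and a mixture with a few other cells give the same level and cannot be told apart.

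No CpG-rich start of the 10 on the B cell list passed the test, which says little where 1.53% of all CpG-rich promoters passed, and the B and T cell lists were not compared by a test. Irf8, a transcription factor of B and myeloid cells, was at 0.30% and 0.554% in the B cell files and 1.89% and 1.47% in the T cell files (adjusted p = 0.23). Syk, a kinase of the B cell receptor, was at 0.280% and 0.212% against 0.841% and 1.12% (adjusted p = 0.24). Others on the list went the other way, with B minus T at 1.06 points for Bach2 (adjusted p = 0.16) and 0.248 points for Pou2f2 (adjusted p = 0.85). The median B minus T of the list was -0.299 points. Among T cell genes, Prkcq, a kinase of T cell receptor signalling, was at 6.60% and 4.15% in the B cell files against 1.11% and 2.35% in the T cell files and missed the threshold (adjusted p = 0.055). Foxo1 and Ralgps2, the lowest of the B cell list, were under 0.25% in every file.

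The comparison of females with males asked whether the sexes differed at autosomal CpG-rich promoters. No CpG-rich promoter was called by the quasi-binomial test, at 20 points or at any size, beside 0% of all promoters tested. At an unadjusted p under 0.05 there were 539 (5.08%), 397 of them higher in females. Limma on log2 ratios gave 0 calls with 781 at an unadjusted p under 0.05. Fisher's exact test between files gave 0 calls at 20 points as well, with 12 past the adjusted p at any size and 150 at an unadjusted p under 0.05. The female and male means differed by under 5 points at 99.6% of CpG-rich promoters, and the largest difference was 10.8 points. In simulated data with these reads and spreads, 200 of 200 CpG-rich promoters changed by 30 points between sexes were recovered and 199 of 200 between B and T cells, and smaller changes were not simulated. The changed promoters mostly started near 0% and kept the spread fitted there, so recovery among promoters that start at intermediate levels was not measured.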

How the data were processed

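Bisulfite reads were processed by the authors before deposit; the submitters' notes name Trim Galore, FastQC, Bismark 0.13.1 and mm10, and duplicate removal is not given in the sources used here. Synthetic control fragments were added, and part of each sample was oxidised; the files used are the plain bisulfite ones. For each CpG the authors deposited the methylated fraction and the count of reads, at 5 reads or more with both strands joined. Methylated reads were recovered as the rounded product of both, since the fraction lay within rounding of whole reads. Gene starts, exons and sequences came from GENCODE M21 and GRCm38.

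Methylated and unmethylated reads of each window were fitted by a quasi-binomial model with cell type and sex (1 residual degree of freedom), and dispersions were shrunk with limma 3.58.1 in R 4.3.3 toward priors of 4 strata (CpG-rich or not, mean level 10 to 90% or not). The priors were 4.33 and 2.27 for CpG-rich promoters inside and outside that range and 1.53 and 1.21 for others. The priors were estimated anew in each alternative, which moves the p-value of a window even where its reads are the same. F tests were adjusted by Benjamini-Hochberg over 19427 promoters. With 1 degree of freedom per promoter, a p-value rests largely on the spread of its stratum. The procedure was tested on data simulated from the same model, with 0 false calls among the unchanged promoters.

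Each group's file was taken as 1 measurement, assigned by the labels. Named promoters were the called ones, the 10 with the highest lowest file among the methylated, and of each list the 3 highest and 2 lowest members; others named were chosen after their values were seen. Members and lists were chosen with earlier results of these data known, and lists are described without a test. Alternatives covered coverage, window size, CpG minimum, averaging, class limits, the gene start, overlapping windows, the difference limit, the prior, the model terms, limma (pseudocount 1), Fisher's exact test and leaving out each file. The X and Y chromosomes were left out. Confidence intervals are 95% Wilson, and a level of 0 is given with the level that 3 reads would make. Both take the reads summed over CpGs as independent, so both are too narrow where CpGs share reads.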

Additional observations from a re-analysis of the deposited data

Results flagged for a closer look

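The difference between females and males in the median level of CpG-rich promoters went in opposite directions in the 2 cell types: the female file lay 0.267 points above the male one for B cells, while the difference for T cells was -0.0505 points, and the unmethylated promoters alone gave 0.268 and -0.0528 points. Each value compares 1 file with 1 file, and the difference between the cell types was not tested. The mitochondrial level was 0.447% in female and 0.249% in male B cells, and 0.188% in female and 0.172% in male T cells; its part was not tested. Groups of 1 file were too small to look for single values that stand apart.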

How the results depend on the processing

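The count of unmethylated promoters stayed within 1.5 times of 9710 in 14 of 14 alternatives, a range that the same 10603 members could leave only downwards. It ran from 7390 (1000 bp to either side) to 10392 (30 CpGs, of 11993 promoters). The share, 91.6% in the main setting, was 69.7% with 1000 bp to either side, 86.7% at 30 CpGs and 97.3% at a limit of 20%. The count of methylated promoters, 87, became 249 at 30 CpGs, 40 at 50 CpGs and 54 at a limit of 80%, and lay between 83 and 95 otherwise. The B against T calls, 5, became 14 at 30 CpGs (13 lower in B cells), 1 at 50 CpGs, 28 at 10 points and 0 by limma on log2 ratios, where 1404 CpG-rich promoters had an unadjusted p under 0.05. Limma gave the 5 adjusted p-values from 0.25 to 0.36; its log2 ratios take no account of reads per promoter, and the cause was not tested. Other settings gave 4 to 7 calls. Scx, Pfn3 and Npb stayed called in 11 of 12 refits with a test each, limma being the exception. Mcoln3 was reversed at the start of its lowest-numbered transcript (8.18 points, chosen after seeing the data). Sex calls were 0 in 14 of 14 alternatives. Since the largest difference in the main setting was 10.8 points, alternatives with the same levels could not reach 20 points. Leaving out each file in turn gave 9735 to 9782 unmethylated promoters, 87 to 89 methylated ones and 5 to 7 B against T calls. These fits kept cell type alone, so that the spread comes from the 2 files left in the other cell type and the lone file is assumed to vary alike. Without the male T cell file Gdf1 was at -17.9 points. The CpG-poor minus CpG-rich median lay between 64.4 and 81.6 points in 9 alternatives chosen after seeing the data. No paired analysis was possible because the labels give the groups different replicate numbers and each group has 1 file. The 2 sexes are the only replication of a cell type, and reads summed over the CpGs of a promoter were 267 or more in every file.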

Other observations

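Some CpG-rich promoters differed between files without following cell type or sex; they were chosen after their values were seen, and none passed the B against T test. Acot4, which encodes an acyl-CoA thioesterase, was at 26.7% and 21.5% in the B cell files (female first) and at 18.5% and 40.97% in the T cell files, and the overlapping window of Gm49366 was at 21.8% and 15.0% against 13.5% and 34.0%. Zrsr1 was at 61.1% and 51.2% in the B cell files and at 46.4% and 62.8% in the T cell files, and Krtcap3 at 74.4% and 54.6% against 60.7% and 63.1%. The male T cell file was highest at Acot4 and Zrsr1, and the female B cell file at Krtcap3. With 1 file per group these differences have no replicate. The highest read total of a CpG-rich promoter was 40503, at Sfi1, which lay between 82.1% and 82.9% in every file and so counts in the methylated class. The median promoter had 989 to 1380 reads over the 4 files. Whether the reads at Sfi1 come from this start alone was not tested.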
